A study of Mus musculus with 20 samples.

Results

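The 10 genes described here code for RNA-binding proteins that regulate splicing in neurons: Rbfox1, Rbfox2, Rbfox3, Nova1, Nova2, Ptbp2, Elavl2, Elavl3, Elavl4 and Srrm4. They were chosen by name as rows of the deposited count table, and all 10 were found among its 25965 rows. All 10 also passed the filter on low counts, which left 16690 genes for testing. None of the 10 differed between genotypes at an adjusted p under 0.05 in any comparison, and the intervals below give the size of change that the data still allow.

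RNA-seq was made from the frontal cortex of C57BL/6 mice aged 5 months that carried a knock-in of the amino acid change Q331K in TDP-43, the RNA-binding protein encoded by Tardbp. The groups were 8 homozygous libraries, with Q331K in both alleles of Tardbp (Q331K/Q331K), 6 heterozygous libraries (Q331K/+) and 6 wild-type libraries (+/+). The change sits in the gene's own locus, so no transgene promoter or Cre line defines where it is expressed. The labels do not say whether samples of 1 genotype are separate animals or which were handled together, and p-values here speak only of the scatter among the libraries at hand.

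Library totals ran from 61282647 to 111440766 counts. Tardbp averaged 245 ± 10.5 CPM in homozygous libraries (SD, n = 8), 230 ± 7.58 CPM in heterozygous libraries (SD, n = 6) and 218 ± 5.53 CPM in wild-type libraries (SD, n = 6), a log2 difference of 0.17 between homozygous and wild-type libraries (edgeR adjusted p = 0.00372). Counts per gene do not read the edited codon. CPM is the count of a gene as a share of its library, per 1e6 counts, after scaling by edgeR's trimmed mean of M-values (TMM) factors. The summed level of 8 pan-neuronal markers lay between 13659.8 and 15739.1 CPM in homozygous, 14415.1 and 15316.7 CPM in heterozygous and 14700.3 and 15729.3 CPM in wild-type libraries. As a score, the mean over the 8 markers of each gene's log2 CPM as a z score, these markers averaged -0.203 ± 0.430 in homozygous (SD, n = 8), -0.143 ± 0.395 in heterozygous (SD, n = 6) and 0.413 ± 0.286 in wild-type libraries (SD, n = 6). The scores ran from -0.998 to 0.302, -0.680 to 0.498 and 0.103 to 0.800 in the same groups, so they overlapped, with lower means in both mutant groups. In edgeR none of the 8 markers was called in homozygous or heterozygous against wild-type libraries. The part of neuron content in the levels of the 10 genes was not tested. In bulk tissue fewer cells of a type and less RNA per cell cannot be told apart.

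Neuronal splicing regulators bind short sequences in introns near alternative exons and decide whether the exon is kept, and several of them also bind 3′ untranslated regions (3′ UTRs) and act on mRNA stability or translation. Rbfox proteins recognise UGCAUG and close variants, Nova proteins recognise clusters of CA-rich tetramers, and neuronal Elavl proteins bind U-rich and AU-rich stretches. Ptbp2 represses neuronal exons until late in differentiation, and Srrm4 promotes the inclusion of very short neuronal exons called microexons. A count per gene gives the level of each regulator's mRNA and shows neither its own isoforms nor the splicing of its targets.

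To compare levels between genes, CPM were divided by the length in kb of all annotated exons of the gene merged (GENCODE M21). On this scale Rbfox1 had the highest level, with a mean of 76.8 CPM per kb over the 20 libraries, followed by Rbfox3 at 61.3, Elavl3 at 37.9, Rbfox2 at 35.5, Elavl4 at 18.6, Nova2 at 12.7 and Ptbp2 at 10.1 CPM per kb. These 7 genes held the same places in all 20 libraries. Elavl2 (8.35 CPM per kb), Nova1 (8.18 CPM per kb) and Srrm4 (7.29 CPM per kb) exchanged places: Elavl2 was above Nova1 in 12 of the 20 libraries, and Nova1 was above Srrm4 in 18. The order depends on the annotated lengths, because an exon of a rare isoform lengthens the model without adding reads. The deposited row of Rbfox1 also ends beyond its GENCODE M21 model, and bases there can hold counts without adding to its length. In CPM without length scaling Rbfox3 averaged 356 and Rbfox1 338 over the 20 libraries, so the first place of Rbfox1 rests on the length used.

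**Figure D1:**
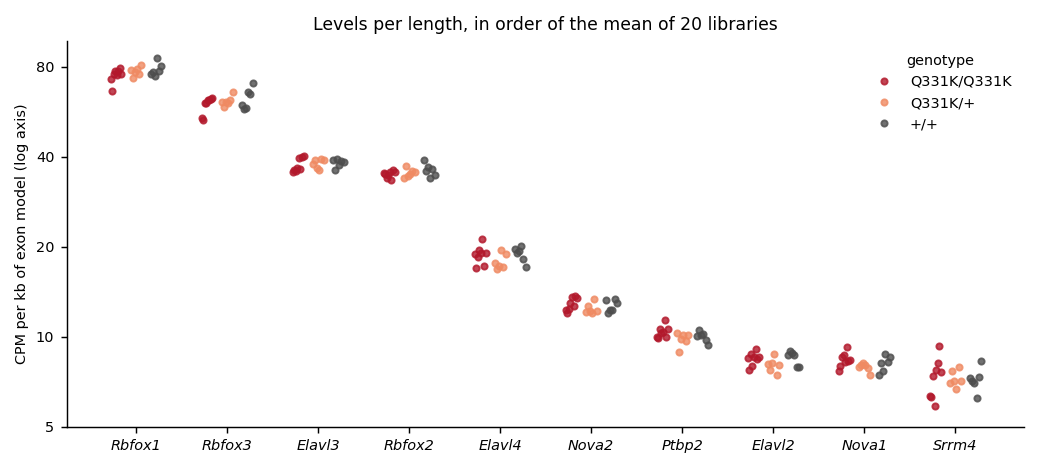
Level per length (CPM per kb of merged exons, log axis) of the 10 genes in 20 libraries, with 1 point per library and colours for genotype. The points of the 3 genotypes overlap for each gene, and the order of the first 7 genes was the same in each library.

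The 3 Rbfox genes code for paralogous RNA-binding proteins, of which Rbfox3 is the neuronal nuclear antigen NeuN. In the deposited table Rbfox1 spanned 6809222 to 7412479 on chromosome 16 (plus strand), Rbfox2 spanned 77078990 to 77307053 on chromosome 15 (minus strand) and Rbfox3 spanned 118489762 to 118911597 on chromosome 11 (minus strand), all in GRCm38. GENCODE M21 starts Rbfox1 further upstream, at 5885355, and ends it at 7411526, short of the deposited end.

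Rbfox1 showed its lowest level, median and highest level at 293, 333 and 349.7 CPM in homozygous libraries, at 323, 341 and 357 CPM in heterozygous libraries and at 328, 341 and 377 CPM in wild-type libraries. Homozygous replicate 2 stood lowest of the 20 libraries, replicate 1 at 321 CPM was next, and the other 6 homozygous libraries overlapped both groups. The log2 difference of homozygous from wild-type libraries was -0.07 (SE 0.036, 95% interval -0.14 to 0.01, edgeR adjusted p = 0.387), a change between -9.30% and 0.632%. Without homozygous replicate 2 it was -0.04, and with 4 tissue scores (markers of ependyma, olfactory bulb, meninges and striatum) as covariates it was -0.0014.

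Rbfox2, which is also expressed outside the nervous system, had a lowest, median and highest level of 273, 287 and 295 CPM in homozygous libraries, 276, 288 and 303 CPM in heterozygous libraries and 276, 294 and 318 CPM in wild-type libraries. The groups overlapped over most of their range, and 3 of the 6 wild-type libraries lay above the highest homozygous one. The difference between homozygous and wild-type libraries was -0.05 on the log2 scale (95% interval -0.11 to 0.01, edgeR adjusted p = 0.434). Exons of Rbfox2 overlap 1700109K24Rik, annotated on the opposite strand, and it is not known whether the counting used strand.

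Rbfox3 had a lowest, median and highest level of 309, 357 and 366 CPM in homozygous libraries, 342, 355 and 385 CPM in heterozygous libraries and 337, 362 and 411 CPM in wild-type libraries. Homozygous replicates 1 and 2, at 315 and 309 CPM, were the lowest of the 20 libraries, while the other 6 homozygous libraries lay close together among the heterozygous ones. Its log2 difference between homozygous and wild-type libraries was -0.07 (95% interval -0.17 to 0.02, edgeR adjusted p = 0.464), which allows a change as low as -11.0%. Leaving out the 4 libraries of high ependymal marker score, described with Srrm4, gave -0.02, and the tissue scores as covariates gave 0.02.

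The make-up of the family differed between genotypes by less than the spread between libraries. Rbfox1 supplied 44.2 ± 0.714% of the summed CPM per kb of the 3 genes in homozygous libraries (SD, n = 8), 44.4 ± 0.759% in heterozygous libraries (SD, n = 6) and 44.2 ± 1.13% in wild-type libraries (SD, n = 6). Rbfox3 supplied 35.2 ± 0.944% in homozygous, 35.3 ± 0.570% in heterozygous and 35.3 ± 1.55% in wild-type libraries. Rbfox2 made up the remainder, at 20.6 ± 1.06% in homozygous, 20.3 ± 0.908% in heterozygous and 20.4 ± 1.67% in wild-type libraries. The means of each gene lay within 1 SD of each other. The size of the shares depends on the lengths used: on plain counts over the 20 libraries Rbfox1 supplied 34.4% and Rbfox3 36.2%.

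The Nova proteins were first known as autoantigens of a paraneoplastic movement disorder, and Nova2 is the paralogue that prevails in mouse cortex. Nova1 spanned 46694517 to 46818775 on chromosome 12 (minus strand) and Nova2 spanned 18925888 to 18965319 on chromosome 7 (plus strand). Nova2 supplied 60.6 ± 1.61% of the summed CPM per kb of the pair in homozygous libraries (SD, n = 8), 61.1 ± 1.30% in heterozygous libraries (SD, n = 6) and 60.9 ± 1.97% in wild-type libraries (SD, n = 6), and Nova1 the rest. The promoter of Nova2 is shown because its level followed that of Elavl3 across libraries, as described further on. Sequences are those of RefSeq (GRCm38.p6), read 5′ to 3′ on the gene's strand from 250 bases before to 50 bases after the annotated start, and capitals mark 2 motifs searched on both strands. They are the GC box core GGGCGG, which reads CCGCCC when it lies on the other strand, and the TATA box core TATAAA, which there reads TTTATA.
Nova2 promoter, chr7:18925638-18925937 (+): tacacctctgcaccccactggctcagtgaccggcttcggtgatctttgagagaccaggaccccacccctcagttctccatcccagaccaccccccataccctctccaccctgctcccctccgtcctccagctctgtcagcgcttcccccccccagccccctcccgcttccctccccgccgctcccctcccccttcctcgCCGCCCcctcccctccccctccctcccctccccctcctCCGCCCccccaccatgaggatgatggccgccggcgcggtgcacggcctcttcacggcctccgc
This window held 2 GC box cores and no TATA box core, and its GC content was 71.3%. Of 32851 promoters of the same length in the RefSeq table, 35.658% held the GC box core and 13.616% held the TATA box core. A match is a description of the letters only. The table matched 9 of the 10 genes, all but Rbfox2.

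Nova1 had a lowest, median and highest level of 67.1, 73.0 and 80.6 CPM in homozygous libraries, 64.9, 69.8 and 71.7 CPM in heterozygous libraries and 65.3, 72.0 and 76.6 CPM in wild-type libraries. The heterozygous libraries formed the tightest group, and 6 of the 8 homozygous libraries lay above all 6 of them. The log2 difference was 0.04 for homozygous against wild-type libraries (95% interval -0.04 to 0.12, edgeR adjusted p = 0.668). For homozygous against heterozygous libraries it was 0.08 (95% interval 0.00 to 0.16), with an unadjusted edgeR p of 0.0433 and an adjusted p of 0.441 over all genes.

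Nova2 had a lowest, median and highest level of 100.4, 107 and 115 CPM in homozygous libraries, 101, 102 and 112 CPM in heterozygous libraries and 101, 106 and 112 CPM in wild-type libraries. The groups shared almost the same range. The difference between homozygous and wild-type libraries was 0.02 on the log2 scale (95% interval -0.05 to 0.09, edgeR adjusted p = 0.827). Exons of Nova1 overlap Gm33869 on the same strand and those of Nova2 overlap Gm26821 on the opposite strand.

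Ptbp2, the neuronal polypyrimidine tract-binding protein, takes over from its paralogue Ptbp1 as neurons form. It spanned 119718742 to 119783388 on chromosome 3 (minus strand). Its promoter is shown because the level of Ptbp2 followed those of Elavl4 and Elavl2 across libraries.
Ptbp2 promoter, chr3:119783339-119783638 (-): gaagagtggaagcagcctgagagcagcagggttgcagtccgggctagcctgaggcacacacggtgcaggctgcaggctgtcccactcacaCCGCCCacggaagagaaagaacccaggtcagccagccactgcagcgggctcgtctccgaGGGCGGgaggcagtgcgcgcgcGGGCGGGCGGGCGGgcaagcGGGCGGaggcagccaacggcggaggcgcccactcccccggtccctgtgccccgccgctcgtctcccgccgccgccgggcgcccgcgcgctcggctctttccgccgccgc
This window held 6 GC box cores, some of which share bases, and 36 CpG dinucleotides, more than 93.8% of all promoters in the table. Its GC content was 74.7%, while the longest annotated transcript of Ptbp2 had 34.2% GC.

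The level of Ptbp2 had a minimum, median and maximum of 91.0, 94.9 and 104 CPM in homozygous libraries, 81.7, 91.6 and 94.8 CPM in heterozygous libraries and 86.4, 93.0 and 96.9 CPM in wild-type libraries. No homozygous library fell below 91.0 CPM, the level above which 4 of 6 wild-type and 3 of 6 heterozygous libraries also lay. The log2 difference of homozygous from wild-type libraries was 0.05 (95% interval -0.02 to 0.12, edgeR adjusted p = 0.517). Against heterozygous libraries it was 0.08 (95% interval 0.01 to 0.15), with an unadjusted edgeR p of 0.0365 and an adjusted p of 0.423.

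The neuronal Elavl genes code for the Hu antigens, which bind U-rich stretches in introns and 3′ UTRs. Elavl2 (HuB) spanned 91250763 to 91400785 and Elavl4 (HuD) 110203722 to 110351909, both on the minus strand of chromosome 4, and Elavl3 (HuC) spanned 22015005 to 22052023 on the minus strand of chromosome 9. Exons of Elavl3 overlap Gm49318 on the same strand. The promoters of Elavl3 and Elavl4 are shown beside that of Nova2 and that of Ptbp2, with which their levels moved, each with the same motifs in capitals. Elavl4 has 4 starts in the RefSeq table, and the one nearest its 5′ end in the deposited table is used.
Elavl3 promoter, chr9:22051974-22052273 (-): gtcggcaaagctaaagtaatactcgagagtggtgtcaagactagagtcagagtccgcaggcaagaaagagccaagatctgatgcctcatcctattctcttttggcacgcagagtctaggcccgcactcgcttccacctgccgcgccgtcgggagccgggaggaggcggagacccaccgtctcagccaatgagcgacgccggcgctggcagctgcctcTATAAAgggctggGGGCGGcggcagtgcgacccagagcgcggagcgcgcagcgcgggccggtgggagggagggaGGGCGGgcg
Elavl4 promoter, chr4:110351862-110352161 (-): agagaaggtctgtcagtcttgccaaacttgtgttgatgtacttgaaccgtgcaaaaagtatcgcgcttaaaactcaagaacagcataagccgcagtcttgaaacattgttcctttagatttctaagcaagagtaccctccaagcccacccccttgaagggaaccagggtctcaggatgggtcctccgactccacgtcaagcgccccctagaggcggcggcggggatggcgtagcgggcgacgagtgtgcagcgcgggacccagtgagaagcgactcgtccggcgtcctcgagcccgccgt
The Elavl3 window held 1 TATA box core and 2 GC box cores. The Elavl4 window held neither motif.

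Elavl3 supplied 57.9 ± 2.00% of the summed CPM per kb of the 3 genes in homozygous libraries (SD, n = 8), 59.4 ± 1.96% in heterozygous libraries (SD, n = 6) and 58.2 ± 1.72% in wild-type libraries (SD, n = 6). Elavl4 supplied 29.1 ± 1.69% in homozygous, 28.0 ± 1.38% in heterozygous and 28.8 ± 1.23% in wild-type libraries, and Elavl2 the rest. The genotype means of each gene lay within 1 SD.

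Elavl2 had a lowest, median and highest level of 64.4, 70.8 and 75.6 CPM in homozygous libraries, 61.8, 67.4 and 72.8 CPM in heterozygous libraries and 65.8, 72.1 and 74.7 CPM in wild-type libraries. The heterozygous group was centred below the others, and 1 of its libraries reached the upper part of both. Its log2 difference was -0.01 for homozygous against wild-type libraries (95% interval -0.09 to 0.07, edgeR adjusted p = 0.938). It was -0.08 for heterozygous against wild-type libraries (95% interval -0.17 to 0.01, edgeR adjusted p = 0.9996).

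Elavl3 had a lowest, median and highest level of 245, 252 and 277 CPM in homozygous libraries, 249.9, 265 and 270.2 CPM in heterozygous libraries and 248, 266 and 271 CPM in wild-type libraries. The homozygous libraries fell into 5 between 245 and 252 CPM and 3, replicates 5, 7 and 8, at or above 273 CPM. The log2 difference was -0.03 against wild type (95% interval -0.09 to 0.04, edgeR adjusted p = 0.748).

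Elavl4 had a lowest, median and highest level of 91.7, 103 and 114 CPM in homozygous libraries, 91.0, 93.9 and 106 CPM in heterozygous libraries and 91.9, 104 and 108 CPM in wild-type libraries. Of the 6 heterozygous libraries, 4 lay in the lowest part of the shared range. The log2 difference was -0.01 for homozygous against wild-type libraries (95% interval -0.10 to 0.09, edgeR adjusted p = 0.964). It was -0.08 for heterozygous against wild-type libraries (95% interval -0.18 to 0.02, edgeR adjusted p = 0.9996).

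Srrm4, also known as nSR100, is the neuronal activator of microexons. It spanned 116439272 to 116591817 on chromosome 5 (minus strand). Its antisense gene Srrm4os overlaps its exons and had a mean of 0.7 counts per library. The lowest, median and highest level of Srrm4 were 50.9, 65.2 and 81.0 CPM in homozygous libraries, 58.3, 61.7 and 68.9 CPM in heterozygous libraries and 54.3, 62.5 and 72.2 CPM in wild-type libraries. The homozygous libraries reached both beyond the lowest and beyond the highest of the other groups.

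Srrm4 was the most variable of the 10 genes. Its coefficient of variation was 15.6% in homozygous, 6.35% in heterozygous and 9.19% in wild-type libraries. Its SD of log2 CPM within genotypes was 0.168, higher than that of 94.1% of the genes with a mean of at least 5 CPM. The SD of Rbfox2 was 0.052, higher than that of 13.1% of them. The log2 difference of Srrm4 between homozygous and wild-type libraries was 0.03 with an interval from -0.16 to 0.21 (edgeR adjusted p = 0.919), so changes from -10.2% to 15.3% remained possible at this spread.

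The 3 lowest homozygous libraries for Srrm4 were replicates 1, 2 and 4, at 55.1, 54.6 and 50.9 CPM. The same 3 libraries, with heterozygous replicate 2, were those with a score of ependymal markers above 0.5, and heterozygous replicate 2 had 66.9 CPM of Srrm4, the second highest of its group. That score is the mean over 8 markers of each gene's log2 CPM as a z score. These markers were of low level and summed to between 7.55 and 21.7 CPM over the 20 libraries. Without these 4 libraries the log2 difference of Srrm4 was 0.16 against wild type (edgeR adjusted p = 0.233) and 0.17 for homozygous against heterozygous libraries (edgeR adjusted p = 0.362). With the tissue scores as covariates the difference from wild type was 0.20, and with 3 surrogate variables it was 0.15 (edgeR adjusted p = 0.238 and 0.135). Over the 20 libraries, less the genotype means, Srrm4 and the ependymal score had r = -0.43 (permutation p = 0.0603, adjusted p = 0.241) and rho = -0.31 (permutation p = 0.185). With the score of choroid plexus markers Srrm4 had r = -0.63 (permutation p = 0.00296, adjusted p = 0.0381) and rho = -0.62 (permutation p = 0.00385, adjusted p = 0.063), and r = -0.62 without wild-type replicate 1 and homozygous replicate 2. The choroid plexus score rests on 4 markers of low level, which summed to between 2.24 and 8.66 CPM. The part of ependymal or choroid plexus cells in the values of Srrm4 was not tested.

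**Figure D2:**
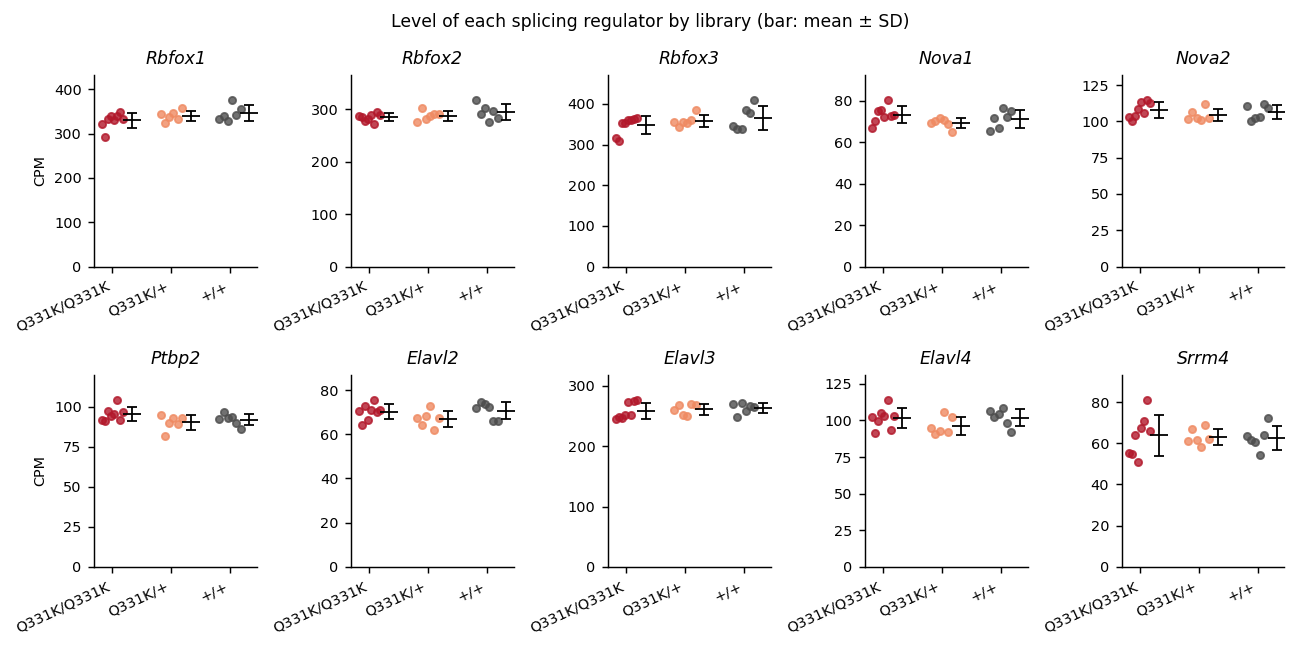
Level (CPM, axis from 0) of each of the 10 genes by genotype, with 1 point per library and the mean ± SD as a bar. The 3 genotypes overlap in each panel, and Srrm4 in homozygous libraries has the widest spread, from 50.9 to 81.0 CPM.

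Read together, 0 of the 10 genes were called in homozygous against wild-type libraries, where 1.56% of all genes tested were called by edgeR (154 of them lowered). The smallest unadjusted p of the 10 was 0.0823, that of Rbfox1, while 16.1% of all genes had an unadjusted p under 0.05. DESeq2 and limma voom also called 0 of the 10. Of the log2 changes 6 were negative, as were 49.4% over all genes, with a median of -0.0078 against 0.0013 over all genes. The median absolute log2 change was 0.033, against 0.058 over all genes, and Rbfox3 had the largest of the 10. The median over all genes includes genes of low count and was not matched to the level of the 10 genes. The sign of Rbfox3, Elavl2 and Elavl4 turned with the tissue scores as covariates, and none of the 10 had an adjusted p under 0.05 in any setting tried.

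For heterozygous against wild-type libraries edgeR called 0 of the 10 genes and 0% of all genes, with 532 genes (3.19%) at an unadjusted p under 0.05 and none of the 10 among them. DESeq2 called 2 genes of all tested and voom 0, and neither was among the 10. The log2 change was negative for 9 of the 10 genes, all but Srrm4, where 48.8% of all genes had a negative change. The median of the 10 was -0.03 against 0.0017 over all genes. Several of these genes varied together from library to library, so the 9 signs are not 9 separate observations. In the same comparison 6 of the 8 pan-neuronal markers and 5 of the 6 excitatory neuron markers had a negative log2 change, with medians of -0.040 and -0.046 and 0 called by edgeR. Their part in the signs of the 10 genes was not tested.

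For homozygous against heterozygous libraries edgeR called 0 of the 10 genes and 0.108% of all genes. Nova1 and Ptbp2 were the 2 of the 10 with an unadjusted p under 0.05, both higher in homozygous libraries, where 11% of all genes had such a p and 4.73% were higher with it. Of the 10 changes 4 were negative, against 50.2% over all genes. The median log2 change of the 10 was 0.03 against -0.00028 over all genes. The heterozygous libraries enter both this comparison and the one before, and the wild-type libraries enter both comparisons with wild type, so the signs of the 3 are not independent.

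The slope per Q331K allele over 0, 1 and 2 alleles gave 0 of the 10 genes and 1.83% of all genes, with 0 of the 10 and 16.8% of all genes at an unadjusted p under 0.05. The slopes ran from -0.04 per allele for Rbfox3 to 0.03 per allele for Ptbp2 on the log2 scale, and the smallest edgeR adjusted p was 0.351, that of Rbfox1. For no gene of the 10 did the CPM of 2 genotypes lie apart without overlap. Over all genes such separation occurred in 0.779% for homozygous against wild-type, 0.198% for heterozygous against wild-type and 0.288% for homozygous against heterozygous libraries.

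**Figure D3:**
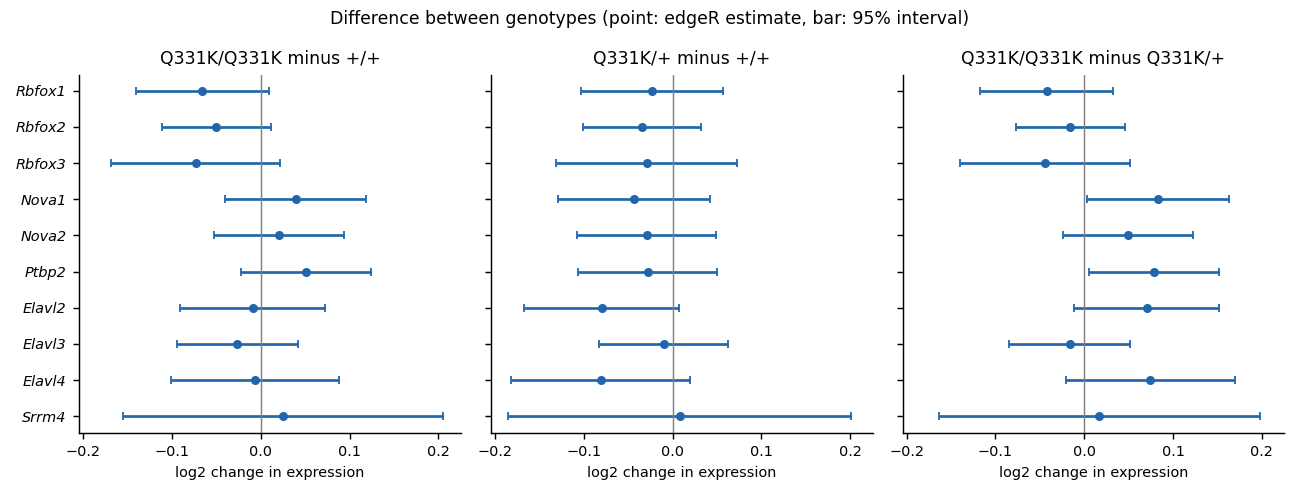
Log2 change of each of the 10 genes in 3 comparisons between genotypes, as edgeR estimates with 95% intervals. The 10 intervals of each comparison with wild type include 0, those of Nova1 and Ptbp2 lie above 0 for homozygous against heterozygous libraries, and Srrm4 has the widest interval.

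Some pairs of the 10 genes varied together from library to library. Pearson's r was computed for the 45 pairs from log2 CPM minus the genotype mean over 20 libraries, with permutation p-values (100000 permutations, two-sided) adjusted by Benjamini-Hochberg over the 45 pairs. Of the 45 values of r, 29 were positive, with a median of 0.12. By r, 8 pairs had an adjusted p under 0.05, 7 of them also by Spearman's rho. The permutations moved the deviations freely over the 20 libraries and did not allow for the genotype means removed. The permutation p-values here and below are therefore somewhat too small, and an adjusted p just under 0.05 may not hold. These 8 pairs, 17.8% of the 45, had an r of at least 0.58 in size, as had 5.93% of all pairs among 10807 genes with a mean of at least 5 CPM, where the median r was 0.0001. No test was made of that difference. The genes of a library share its preparation, depth and piece of tissue, and the values describe libraries.

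Rbfox1 and Rbfox3 had r = 0.79 (permutation p = 3e-05, adjusted p = 0.00113) and rho = 0.81 (permutation p = 5e-05). Without wild-type replicate 4 and homozygous replicate 2, the libraries farthest from the median of Rbfox1, r was 0.76. Rbfox3 was the gene with the 15th highest r with Rbfox1 among 10807 genes with a mean of at least 5 CPM. Rbfox2 did not follow its paralogues, with r = -0.48 with Rbfox1 (permutation p = 0.0334, adjusted p = 0.115, rho = -0.49, r = -0.46 without those 2 libraries).

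Rbfox2 and Nova1 moved in opposite directions, with r = -0.70 (permutation p = 0.00053, adjusted p = 0.00398) and rho = -0.73 (permutation p = 0.00039). Without wild-type replicates 1 and 4, r was -0.55. Of the 10807 genes, Nova1 stood at place 10724 in the order of r with Rbfox2. With the other 2 Rbfox genes the sign of r was positive. Nova1 had r = 0.53 with Rbfox3 (permutation p = 0.016, adjusted p = 0.0798, rho = 0.43). With Rbfox1 it had r = 0.51 (permutation p = 0.0216, adjusted p = 0.0882, rho = 0.51). Because Rbfox proteins bind UGCAUG, the 3′ UTR of Nova1 (5452 bases, GENCODE M21) was searched on the transcript strand for TGCATG, which occurred 6 times. Of 393 genes with a 3′ UTR of length within 10% of it, 86.3% held the motif and 2.04% held it at least 6 times. The 3 sites nearest the stop codon are shown with 12 bases on each side (GRCm38, sequence from GENCODE M21), with the motif in capitals.
Nova1 site, chr12:46699320-46699349 (-): tggaaataatgcTGCATGctggccagggcc
Nova1 site, chr12:46698866-46698895 (-): tactcggtaattTGCATGttttgtggagca
Nova1 site, chr12:46698818-46698847 (-): gacagtatttccTGCATGcttatttagaag
The letters show a match and no binding. Among the other genes described here Nova2 had 3 matches in its 3′ UTR, Ptbp2, Elavl3, Elavl4 and Srrm4 had 1 each, and Rbfox1, Rbfox2, Rbfox3 and Elavl2 had 0.

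Nova2, Elavl3 and Srrm4 also varied together. Nova2 and Elavl3 had r = 0.79 (permutation p = 5e-05, adjusted p = 0.00113), rho = 0.75 (permutation p = 0.00023), and r = 0.76 without heterozygous replicate 5 and homozygous replicate 7. Nova2 and Srrm4 had r = 0.63 (permutation p = 0.00273, adjusted p = 0.0176), rho = 0.66 (permutation p = 0.00177), and r = 0.51 without the same 2 libraries. Elavl3 and Srrm4 had r = 0.58 (permutation p = 0.00663, adjusted p = 0.0373) and rho = 0.53 (permutation p = 0.0182, adjusted p = 0.0912), and r = 0.63 without wild-type replicate 2 and homozygous replicate 8.

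Among genes of low GC content, Ptbp2 and Elavl4 had r = 0.75 (permutation p = 0.00018, adjusted p = 0.0027), rho = 0.71 (permutation p = 0.00082), and r = 0.69 without heterozygous replicate 2 and homozygous replicate 6. Ptbp2 and Elavl2 had r = 0.72 (permutation p = 0.00036, adjusted p = 0.00378), rho = 0.77 (permutation p = 0.00013), and r = 0.71 without the same 2 libraries. Elavl2 and Elavl4 had r = 0.72 (permutation p = 0.00042, adjusted p = 0.00378), rho = 0.67 (permutation p = 0.00153), and r = 0.65 without heterozygous replicate 5 and homozygous replicate 2.

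**Figure D4:**
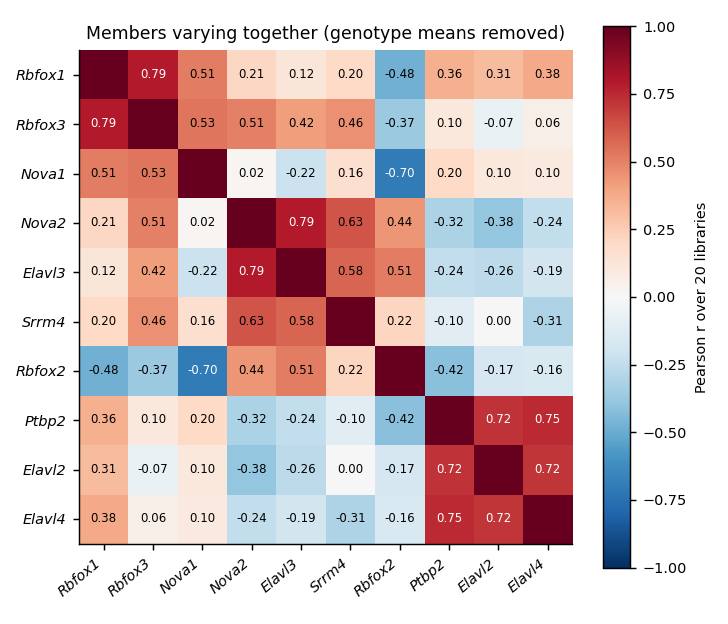
Pearson's r for each pair of the 10 genes over 20 libraries, from log2 CPM minus the genotype mean (red positive, blue negative). Ptbp2, Elavl2 and Elavl4 form a block with r of 0.72 to 0.75, Rbfox1 and Rbfox3 reach 0.79, and Rbfox2 with Nova1 is the lowest value at -0.70.

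The genes that varied together were also compared by base composition. The longest annotated transcripts of Ptbp2, Elavl2, Nova1 and Elavl4 had 34.2%, 38.5%, 38.5% and 38.9% GC, at or under the 3.19 percentile of 11393 genes with a mean of at least 5 CPM. Those of Rbfox1, Rbfox2 and Srrm4 had 44.95%, 51.5% and 52.2%, and those of Elavl3, Nova2 and Rbfox3 had 54.1%, 56.3% and 58.6% (median of the 11393 genes 49.8%). Each library was given a GC slope, the change in log2 CPM deviation per 10 points of GC over 11393 genes, which ran from -0.084 to 0.060. Relations of the 10 genes with this slope and with 17 other measures of the libraries were adjusted together over 180 tests, a family chosen after the data were seen. Their permutation p-values, also those given with Srrm4, are somewhat too small for the same reason as those of the pairs.

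Nova2 rose with the GC slope, with r = 0.71 (permutation p = 0.00033, adjusted p = 0.0171), rho = 0.72 (permutation p = 0.00053), and r = 0.74 without heterozygous replicate 5 and homozygous replicate 6, the libraries whose slopes, less the genotype mean, lay farthest from the median. Elavl2 fell with it, with r = -0.72 (permutation p = 0.00027, adjusted p = 0.0171), rho = -0.74 (permutation p = 0.00038), and r = -0.62 without these libraries. Elavl4 had r = -0.63 (permutation p = 0.00267, adjusted p = 0.0374) and rho = -0.62 (permutation p = 0.00445, adjusted p = 0.0668), and r = -0.50 without them. Nova1, as poor in GC as Elavl2, had r = -0.05 (permutation p = 0.842, adjusted p = 0.962, rho = -0.06, r = 0.30 without them). For the genes that follow, the relation did not pass over the 180 tests. Elavl3 had r = 0.58 (permutation p = 0.00787, adjusted p = 0.0748) and rho = 0.65 (adjusted permutation p = 0.0514), and Ptbp2 had r = -0.58 (permutation p = 0.00777, adjusted p = 0.0748) and rho = -0.54 (adjusted permutation p = 0.120). Rbfox3, the most GC-rich of the 10, had r = 0.43 (permutation p = 0.0601, adjusted p = 0.241) and rho = 0.44, and Srrm4 had r = 0.33 (permutation p = 0.153) and rho = 0.50 (permutation p = 0.0253, adjusted p = 0.162).

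The levels of Nova2 and Srrm4 also ran against the TMM factor of the library, the factor by which edgeR scales its total count. CPM is divided by this factor, so the level and the factor are not independent measures. Nova2 had r = -0.72 (permutation p = 0.00038, adjusted p = 0.0171), rho = -0.75 (permutation p = 0.00021, adjusted p = 0.0186), and r = -0.74 without wild-type replicates 1 and 6. Srrm4 had r = -0.68 (permutation p = 0.00087, adjusted p = 0.0224), rho = -0.77 (permutation p = 0.0001, adjusted p = 0.018), and r = -0.70 without the same 2 libraries. Elavl3 had r = -0.53 (permutation p = 0.018, adjusted p = 0.110) and rho = -0.56. The part of this factor in the levels of these genes and in their variation together was not tested.

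With the GC slope removed from each gene, 6 of the 45 pairs had an adjusted p under 0.05. Rbfox1 with Rbfox3 had r = 0.86 and Rbfox2 with Nova1 r = -0.71 (adjusted permutation p = 0.00045 and 0.00788), and Nova2 with Elavl3, Nova2 with Srrm4 and Ptbp2 with Elavl4 also passed. Ptbp2 with Elavl2 (r = 0.54, adjusted permutation p = 0.0869), Elavl2 with Elavl4 (r = 0.49, adjusted permutation p = 0.094) and Elavl3 with Srrm4 (r = 0.51, adjusted permutation p = 0.0869) did not. The pair that passed only with the slope removed was Rbfox3 with Nova1 (r = 0.61, adjusted permutation p = 0.0431).

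Without the 4 libraries of high ependymal score, 11 of the 45 pairs had an adjusted permutation p under 0.05 over 16 libraries. Rbfox2 with Nova1 had r = -0.88 (adjusted permutation p = 0.00045). Nova2 with Elavl2, which was not among the 8 pairs over all libraries, had r = -0.80 (adjusted permutation p = 0.0018), and Elavl3 with Srrm4 had r = 0.40 (adjusted permutation p = 0.250).

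**Figure D5:**
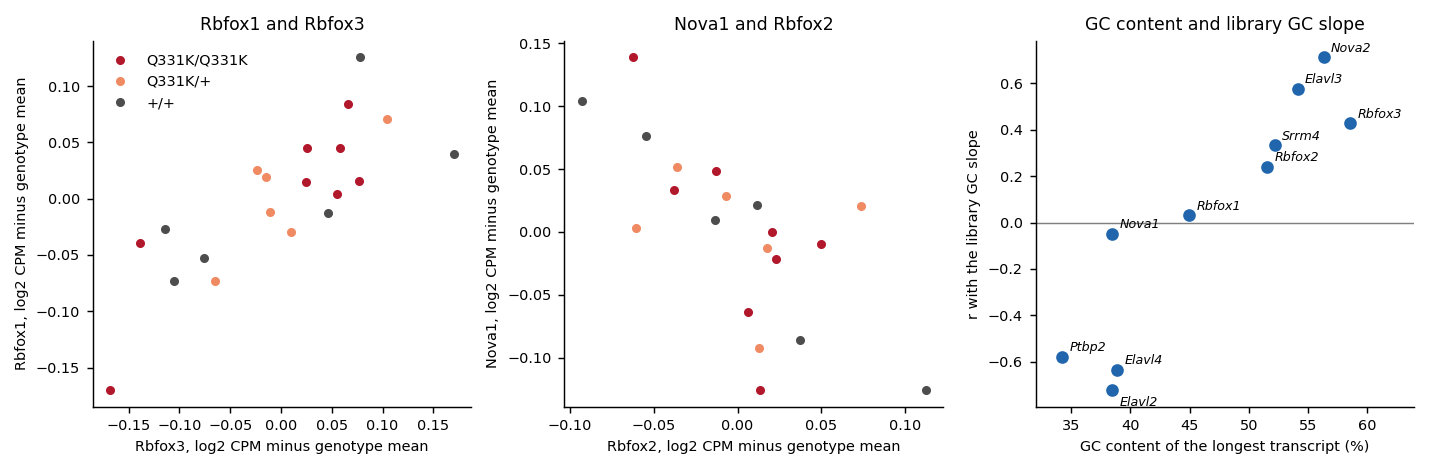
Left and middle, deviations of Rbfox1 against Rbfox3 and of Nova1 against Rbfox2 (log2 CPM minus the genotype mean, 1 point per library, colours for genotype); right, r of each gene with the library GC slope against the GC content of its longest transcript (%). Rbfox1 rises with Rbfox3, Nova1 falls with Rbfox2, and the 3 genes with r below -0.5 in the right panel are the GC-poor Ptbp2, Elavl2 and Elavl4.

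Markers of cell types moved with some of the 10 genes. Rbfox3 followed the score of 6 excitatory neuron markers, with r = 0.68 (permutation p = 0.00061, adjusted p = 0.0219), rho = 0.52 (permutation p = 0.0188, adjusted p = 0.135), and r = 0.59 without heterozygous replicate 1 and homozygous replicate 2. Rbfox1 did so with r = 0.66 (permutation p = 0.00186, adjusted p = 0.0358), rho = 0.45 (permutation p = 0.0478, adjusted p = 0.211), and r = 0.48 without these libraries. Nova2 did so with r = 0.62 (permutation p = 0.0027, adjusted p = 0.0374), rho = 0.56 (permutation p = 0.012, adjusted p = 0.108), and r = 0.51 without these libraries. Homozygous replicate 2 had the lowest excitatory score of the 20 libraries, -1.68, and was the lowest homozygous library for 6 of the 10 genes (Rbfox1, Rbfox3, Nova2, Ptbp2, Elavl2 and Elavl4).

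Elavl2 ran against the score of 6 astrocyte markers, with r = -0.81 (permutation p = 3e-05, adjusted p = 0.0054), rho = -0.72 (permutation p = 0.00048, adjusted p = 0.0186), and r = -0.75 without homozygous replicates 2 and 4. It also ran against the score of microglia markers, with r = -0.65 (permutation p = 0.00176, adjusted p = 0.0358), rho = -0.71 (permutation p = 0.00062, adjusted p = 0.0186), and r = -0.70 without heterozygous replicate 5 and homozygous replicate 8. With the score of endothelial markers Elavl2 had r = -0.70 (permutation p = 0.00073, adjusted p = 0.0219) and rho = -0.58 (permutation p = 0.00849, adjusted p = 0.0955), and r = -0.56 without heterozygous replicate 5 and homozygous replicate 2. Ptbp2 ran against the ependymal score, with r = -0.64 (permutation p = 0.00222, adjusted p = 0.0363), rho = -0.60 (permutation p = 0.00561, adjusted p = 0.0777), and r = -0.52 without heterozygous replicate 2 and homozygous replicate 1. Elavl4 followed the score of 8 pan-neuronal markers, with r = 0.65 (permutation p = 0.00199, adjusted p = 0.0358), rho = 0.60 (permutation p = 0.00662, adjusted p = 0.0851), and r = 0.55 without heterozygous replicate 5 and homozygous replicate 2. Whether cell make-up sets the levels of these genes was not tested. In all 14 of the 180 relations had an adjusted p under 0.05 by r and 6 by both r and rho.

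The genes most alike in pattern, up to 2 for each of the 10 genes, were read from the same deviations among 10807 genes of at least 5 CPM, by Pearson's r over 20 libraries. Prdm8 (r = 0.86) was the one given for Rbfox1. They were for Rbfox2 Sgsm1 (r = 0.92) and Arhgef7 (r = 0.90), and for Rbfox3 Cend1 (r = 0.93) and Mtap1a (r = 0.91). For Nova1 they were Pla2g4e and Sun1 (r = 0.89 each) and for Nova2 Pacsin1 and Rai1 (r = 0.92 each). Eid1 (r = 0.86) and Ddx3x (r = 0.85) were most like Ptbp2, and Zyg11b and Itfg1 (r = 0.95 each) most like Elavl2. Auts2 (r = 0.88) and Prosapip1 (r = 0.87) were most like Elavl3, Casc4 (r = 0.90) and Akap6 (r = 0.89) most like Elavl4, and Plch2 (r = 0.91) and Slc25a44 (r = 0.90) most like Srrm4. None of the 10 genes was among the 2 most like another of the 10.

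Other regulators of the same processes were taken as a list. Of 19 listed paralogues and related factors (Ptbp1, Ptbp3, Elavl1, Srrm3 and the Celf, Mbnl, Khdrbs, Quaking and Musashi genes), 17 were tested and 0 were called by edgeR in homozygous against wild-type libraries, with 10 positive and 7 negative log2 changes and a median of 0.02 against 0.0013 over all genes. At an unadjusted p under 0.05 there were 4 of the 17, where 16.1% of all genes had such a p and 1.56% were called, and DESeq2 and voom also called 0. Ptbp1, the non-neuronal paralogue of Ptbp2, averaged 38.8 ± 2.40 CPM in homozygous libraries (SD, n = 8), 38.0 ± 2.30 CPM in heterozygous libraries (SD, n = 6) and 36.2 ± 2.56 CPM in wild-type libraries (SD, n = 6), the highest log2 change of the list at 0.10 (edgeR adjusted p = 0.310). Srrm3, the paralogue of Srrm4, averaged 68.3 ± 4.74 CPM in homozygous, 72.9 ± 5.09 CPM in heterozygous and 73.9 ± 5.20 CPM in wild-type libraries, the lowest at -0.11 (edgeR adjusted p = 0.255). Msi1 (0.08) and Khdrbs3 (-0.08) were next. For Ptbp1 and Srrm3 the 3 genotypes overlapped.

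Of 15 transcripts listed as known targets of the 10 regulators, all 15 were tested and 1 was called by edgeR in homozygous against wild-type libraries, as lowered, against 0.923% of all genes. The same 1 was lowered against heterozygous libraries (0.0779% of all genes) and in the slope per allele (1.05% of all genes). That transcript was Vamp1, which codes for a vesicle fusion protein of fast-firing neurons and whose 3′ UTR is bound by cytoplasmic Rbfox1 in mouse neurons. Vamp1 spanned 125215551 to 125244543 on chromosome 6 (plus strand) and overlaps Tapbpl and Cd27 on the opposite strand. Its 3′ UTR (2512 bases, GENCODE M21) held TGCATG 4 times on the transcript strand. Of 1297 genes with a 3′ UTR within 10% of that length, 57.0% held the motif and 2.47% held it at least 4 times. The 4 sites are shown because Vamp1 is the listed target that changed, with the motif in capitals and 12 bases on each side (GRCm38, sequence from GENCODE M21).
Vamp1 site, chr6:125220489-125220518 (+): gcttgctgccagTGCATGtgtatatgcaca
Vamp1 site, chr6:125220985-125221014 (+): agaaatgagagcTGCATGgcaagactccca
Vamp1 site, chr6:125221260-125221289 (+): tttcactcccttTGCATGctgtgtttgttg
Vamp1 site, chr6:125221904-125221933 (+): ccaccacccatgTGCATGagcaaatatgca
The lowest, median and highest level of Vamp1 were 160.4, 175 and 193 CPM in homozygous libraries, 194, 203 and 212 CPM in heterozygous libraries and 197, 212 and 224 CPM in wild-type libraries. Each homozygous library lay below each library of both other groups, narrowly so for the heterozygous group, a separation downward that 0.515% of all genes had against wild-type and 0.198% against heterozygous libraries. The log2 change was -0.25 against wild type (SE 0.036, edgeR adjusted p = 0.000395) and -0.20 against heterozygous libraries (edgeR adjusted p = 0.0244). Rbfox1 itself had -0.07 and -0.04 and was not called (edgeR adjusted p = 0.387 and 0.700). The part of Rbfox1 in the level of Vamp1 was not tested. The call against heterozygous libraries was lost in edgeR with 3 surrogate variables (adjusted p = 0.330), with tissue scores as covariates (adjusted p = 0.131), with the replicate number as a block (adjusted p = 0.0894) and without any 1 of heterozygous replicates 1, 2 and 3 or homozygous replicates 1, 6 and 8 (adjusted p up to 0.0894). The log2 change stayed between -0.221 and -0.169 over the other settings and between -0.215 and -0.177 with 1 library left out.

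Pvalb, the marker of a class of fast-firing interneurons in which Vamp1 is abundant, moved the same way. It averaged 42.9 ± 3.40 CPM in homozygous libraries (SD, n = 8), 51.4 ± 2.66 CPM in heterozygous libraries (SD, n = 6) and 53.6 ± 4.27 CPM in wild-type libraries (SD, n = 6), a log2 change of -0.32 against wild type (edgeR adjusted p = 0.00161), and was looked up after its values were known. The part of these cells in the level of Vamp1 was not tested. Pvalb is 1 of 6 inhibitory neuron markers, of which 1 was called by edgeR in homozygous against wild-type libraries. Of the 6 log2 changes 4 were negative and 2 positive, from -0.32 for Pvalb to 0.08, with a median of -0.09. The other 14 listed targets had no call in any comparison by edgeR. DESeq2 and voom each called 2 of the 15 in homozygous against wild-type libraries, Vamp1 among them, where DESeq2 called 3.83% and voom 1.71% of all genes. Among the 15, 5 had an unadjusted edgeR p under 0.05, as had 16.1% of all genes, and the median log2 change of the 15 was 0.0080 against 0.0013 over all genes.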

How the data were processed

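Libraries were stranded and made from poly(A) RNA of frontal cortex, per the labels' protocols. The authors deposited 1 table of raw counts, whole numbers for each gene and library. The submitters' processing notes name Trim Galore 0.4.3, HISAT2 2.0.5 and GRCm38. What program counted the reads, on which annotation and whether by strand, is not given in the sources used here. Of 25909 gene identifiers, 24990 matched GENCODE M21, which gave lengths, overlaps, GC content and 3′ UTRs. Total counts per library are given with the results.

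edgeR 4.0.16 in R 4.3.3 was run on all 20 libraries in 1 fit (TMM scaling, filterByExpr, robust quasi-likelihood test), with adjustment by Benjamini-Hochberg over 16690 genes. The 56 rows with no identifier held at most 0.0835% of a library's counts. Intervals use the t distribution of the fit. Libraries of 1 genotype differed by more than sampling noise (smallest chi-square per degree of freedom 13.0 over 58 pairs). Marker scores average the z scores of log2 CPM (prior count 2) over a list. Python with numpy 2.4.6 and scipy 1.17.1 gave correlations. Alternatives used DESeq2 1.42.0, limma 3.58.1 and sva 3.50.0, other filters and scalings, a replicate block, tissue scores (ependymal, olfactory bulb, meningeal, striatal) and leaving out libraries. The code was tested on simulated data.

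Beside the 10 genes, those named are Tardbp, genes called by edgeR in the lists of regulators and targets (where none was called, the 2 highest and 2 lowest changes), and the 2 genes most alike in pattern, without predicted genes and clone names. A gene alike in pattern to Rbfox1 and a listed target are not reported here. Pvalb, the relations with library measures, the comparison with all gene pairs and the 3′ UTR search in Nova1 were chosen after values were seen. The 10 genes and the lists were chosen with earlier results of these data known. Qk has 2 rows in the table and was not analysed here, and Mbnl3 did not pass the filter.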

Additional observations from a re-analysis of the deposited data

How the results depend on the processing

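The 10 genes kept 0 calls in each setting tried, over 1190 refitted changes, and the smallest adjusted p was 0.125 (Srrm4 in the slope per allele with 3 surrogate variables). Without leaving out single libraries, 358 of 390 changes kept their direction and 32 reversed, the largest of these 0.068 in size on the log2 scale; the cause was not tested. Same-numbered libraries of different genotypes showed little likeness in their deviations (r of -0.104 to 0.139, 1 of 18 over 0.1). Such small values of r cannot show that they were handled apart. With the replicate block edgeR called 387 genes for homozygous against wild-type, 0 for heterozygous against wild-type and 16 for homozygous against heterozygous libraries and 383 in the slope per allele. Without the block these numbers were 261, 0, 18 and 306. Replicate numbers 7 and 8 occur only among homozygous libraries, so with the block these libraries do not add to differences between genotypes. The block reversed Nova2 (-0.0076), Elavl4 (0.0083) and Srrm4 (-0.055) for homozygous against wild-type libraries, Srrm4 (-0.068) for homozygous against heterozygous libraries, and the slopes of Nova2 (-0.0038) and Srrm4 (-0.028).

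In the same order of comparisons, DESeq2 called 638, 2, 103 and 696 genes. For homozygous against heterozygous libraries 11 genes were called with no low count filter, 1 with 3 surrogate variables and 8 with tissue scores, and in the slope 193 were called without the 4 libraries of high ependymal score. Leaving out each library gave 115 to 314 genes for homozygous against wild-type, 0 for heterozygous against wild-type and 5 to 31 for homozygous against heterozygous libraries, and 159 to 436 in the slope. On plain counts the family shares were 34.4% for Rbfox1, 29.4% for Rbfox2, 16.1% for Elavl2, 60.6% for Elavl3 and 23.2% for Elavl4, since the lengths differ.

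With 3 surrogate variables the reversed log2 changes were Elavl3 0.00999 for homozygous against wild-type, Rbfox1 0.0011 for heterozygous against wild-type, Rbfox2 0.0086, Elavl2 -0.014, Elavl3 0.016 and Elavl4 -0.019 for homozygous against heterozygous libraries, and Elavl3 0.0045 and Elavl4 -0.034 in the slope. Voom reversed the slope of Elavl4 (-0.0039). Tissue scores reversed Rbfox3 0.024, Elavl2 0.045 and Elavl4 0.021 for homozygous against wild-type, Rbfox1 0.0027, Rbfox3 0.026, Nova2 0.00047 and Elavl3 0.018 for heterozygous against wild-type libraries, and Rbfox3 0.012 and Elavl2 0.022 in the slope. Without the libraries of high ependymal score the reversed values were Elavl2 0.029, Elavl3 0.0067 and Elavl4 0.0095 for homozygous against wild-type, Srrm4 -0.013 for heterozygous against wild-type, Rbfox2 0.0012 and Elavl3 0.027 for homozygous against heterozygous libraries, and Elavl2 0.012 and Elavl3 0.0027 in the slope.

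Leaving out single libraries, the changes that crossed 0 ran from -0.030 to 0.0072 (Elavl2), -0.034 to 0.012 (Elavl4) and -0.031 to 0.071 (Srrm4) for homozygous against wild-type libraries. For heterozygous against wild-type libraries they ran from -0.038 to 0.0017 (Rbfox1), -0.052 to 0.0060 (Rbfox3), -0.027 to 0.0035 (Elavl3) and -0.031 to 0.052 (Srrm4). For homozygous against heterozygous libraries they ran from -0.028 to 0.00069 (Rbfox2) and -0.040 to 0.058 (Srrm4), and in the slope from -0.011 to 0.0085 (Elavl2), -0.015 to 0.010 (Elavl4) and -0.016 to 0.034 (Srrm4). Pairs that varied together numbered 8, against 6 with the GC slope removed and 11 without the libraries of high ependymal score. The 10 genes had over 50 CPM in each library, and the intervals come from the spread between 6 to 8 libraries per genotype.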
